A study of Mus musculus with 17 samples.

Results

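The 9 genes described here carry out sodium, bicarbonate and water transport in the proximal tubule, namely Slc9a3, Slc4a4, Car2, Car4, Car12, Aqp1, Aqp7, Aqp11 and Fxyd2. They were taken by name and matched to their Ensembl identifiers, and all 9 were listed in each of the 17 libraries, among 53313 identifiers that the libraries have in common. RNA-seq counts came from mouse primary tubular epithelial cells (PTEC) and from whole kidneys. The PTEC were wild type C57BL/6JRj cells grown from sieved tubular fragments, either untreated on culture day 6 (non-senescent, 4 cultures) or irradiated at confluence with 10 Gy and taken on day 16 (senescent, 4 cultures). The kidneys came from untreated wild type male C57BL/6JRj mice of 3, 12 and 24 months, with 3 mice at each age and part of the right kidney taken from each. Irradiation and the longer time in culture cannot be told apart in the PTEC comparison.

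The proximal tubule takes back most of the filtered sodium, bicarbonate and water. The apical exchanger NHE3 moves sodium into the cell and protons into the lumen, where carbonic anhydrase turns bicarbonate and protons into carbon dioxide that enters the cell. A cytosolic carbonic anhydrase forms bicarbonate again, the basolateral cotransporter NBCe1 returns it to the blood together with sodium, the sodium pump removes the remaining sodium, and water follows through aquaporins.

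The PTEC libraries held 26963442 to 35409144 counts and the kidney libraries 37311247 to 66894790, where the totals rose from group to group with age. The 3-month kidneys were counted on 54146 identifiers and the older kidneys on 55401, so age, depth and gene set differ together between these groups. Levels are given as CPM (the count scaled to a library of 1000000), on library sizes scaled by TMM over all 17 libraries, and comparisons between genes as CPM per kilobase of exon. The label of proximal tubular cells was checked against 16 proximal tubule markers, whose summed level was 179 to 691 CPM in non-senescent PTEC, 120.2 to 270 CPM in senescent PTEC and 62964 to 82311 CPM in kidneys. In non-senescent PTEC, 11 of the 16 reached a mean of 1 CPM and in senescent PTEC 6 did. The summed level of 5 thin descending limb markers was above the proximal sum in every culture, at 600 to 763 CPM in non-senescent and 719 to 1219 CPM in senescent PTEC, against 121 to 493 CPM in kidneys. Cldn1 and Fst had the highest levels in that sum, while Slc14a2, a urea transporter of the thin limb, was at 2.56 ± 1.30 and 0.538 ± 0.0911 CPM in the PTEC groups. The defining marker Lrp2 was present in both (160.1 ± 176 and 177 ± 74.7 CPM, SD, n = 4), while Slc22a6 was near 0 in both, at 0.102 ± 0.118 and 0.00531 ± 0.0106 CPM. The senescence marker Cdkn1a rose in the cultures labelled senescent, from 249 ± 58.7 to 601 ± 93.6 CPM, as did Cdkn2a, from 25.8 ± 6.85 to 78.6 ± 14.9 CPM.

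Promoter sequences were at hand for 7 of the 9 genes, in 9 windows of 250 bases before a RefSeq start on GRCm38.p6. Slc9a3, both starts of Slc4a4 and Aqp1 are shown because they stand for the 2 transporters and the water channel that the results below turn on. Each runs 5′ to 3′ on the plus strand, from chr13:74121163-74121412, chr5:88887010-88887259, chr5:89027716-89027965 and chr6:55336049-55336298. Capitals mark the GC box (GGGCGG, or CCGCCC on the other strand) and the half-site of HNF4 (CAAAGT, or ACTTTG on the other strand).
Slc9a3: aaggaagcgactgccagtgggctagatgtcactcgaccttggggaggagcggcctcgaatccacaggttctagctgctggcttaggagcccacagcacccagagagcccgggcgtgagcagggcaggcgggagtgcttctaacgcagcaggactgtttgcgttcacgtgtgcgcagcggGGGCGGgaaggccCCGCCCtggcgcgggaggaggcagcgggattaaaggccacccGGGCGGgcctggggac
Slc4a4, upstream start: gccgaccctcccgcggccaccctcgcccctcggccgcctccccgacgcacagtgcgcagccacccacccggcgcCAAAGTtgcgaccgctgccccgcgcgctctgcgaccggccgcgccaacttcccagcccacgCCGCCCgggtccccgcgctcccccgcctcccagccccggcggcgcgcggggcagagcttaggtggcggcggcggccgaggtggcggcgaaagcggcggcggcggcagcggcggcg
Slc4a4, downstream start: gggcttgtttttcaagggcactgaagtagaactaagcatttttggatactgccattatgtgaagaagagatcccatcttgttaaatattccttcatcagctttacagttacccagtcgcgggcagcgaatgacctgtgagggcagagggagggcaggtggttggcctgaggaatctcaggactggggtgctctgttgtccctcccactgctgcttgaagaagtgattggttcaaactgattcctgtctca
Aqp1: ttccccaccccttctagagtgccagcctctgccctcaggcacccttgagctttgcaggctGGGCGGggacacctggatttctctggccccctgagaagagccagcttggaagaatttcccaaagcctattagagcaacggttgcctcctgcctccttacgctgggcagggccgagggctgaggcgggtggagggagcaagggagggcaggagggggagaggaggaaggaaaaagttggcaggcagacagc
The window of Slc9a3 held 3 GC boxes, and that of the upstream Slc4a4 start held 1 GC box and 1 HNF4 half-site. The downstream start of Slc4a4, which lies inside the gene, held neither motif, and Aqp1 held 1 GC box. Across the 9 windows, 4 held a GC box, against 32.7% of 32817 promoter windows of the same length, and 1 held the HNF4 half-site, against 12.6%. None of the 9 held the HNF1 half-site (GTTAAT, or ATTAAC on the other strand), which 6.44% of all windows hold, or a TATA box (TATAAA, or TTTATA on the other strand), which 12.4% hold. The counts are per gene, so they do not separate the 2 starts of Slc4a4.

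Per kilobase, the kidneys were led by Fxyd2, the gamma subunit of the sodium pump, and Aqp1, the constitutive water channel. At 3 months, Fxyd2 stood at 906 ± 275 CPM per kilobase and Aqp1 at 636 ± 42.2 (SD, n = 3), followed by Car2 at 156 ± 25.2, Car4 at 144 ± 14.3 and Slc4a4 at 58.7 ± 16.965. Car12, Slc9a3, Aqp7 and Aqp11 lay between 8.95 and 21.6 CPM per kilobase. The order in PTEC was another one. In non-senescent PTEC, Car2 came first at 72.8 ± 19.7 CPM per kilobase, before Fxyd2 at 46.7 ± 33.0 and Slc4a4 at 19.2 ± 18.8 (SD, n = 4), and Slc9a3, Aqp7, Aqp11 and Car4 all lay under 1. In senescent PTEC, Car2 led at 31.3 ± 6.09 CPM per kilobase, with Slc4a4 at 6.62 ± 1.83, Aqp1 at 6.06 ± 1.97 and Fxyd2 after these at 2.82 ± 1.92.

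**Figure D1:**
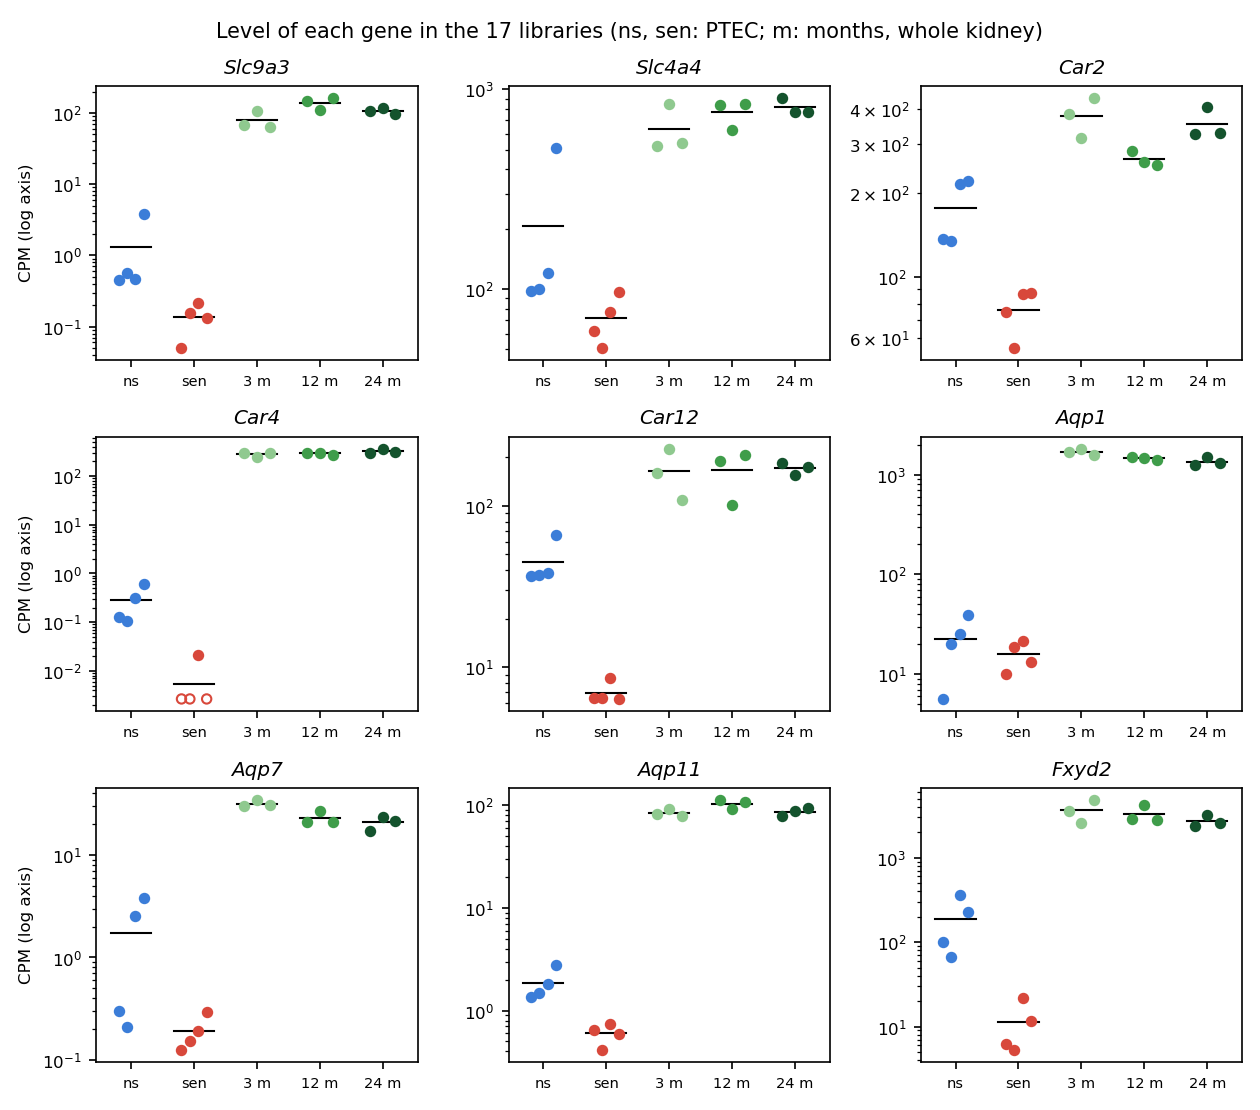
CPM of each gene (log axis) in non-senescent (ns) and senescent (sen) PTEC and in kidneys of 3, 12 and 24 months (m), 1 point per library, with the group mean as a line; open circles are libraries with 0 counts, drawn at an arbitrary height. On this joint scale of the 17 libraries, every gene lies higher in all 9 kidneys than in any PTEC library. The gap is narrowest for Slc4a4, whose highest PTEC value (512 CPM) comes close to the lowest kidney value (521 CPM).

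Senescent and non-senescent PTEC were compared to see which of these transport genes change with the senescent state of the cultures. Of the 8 genes with enough counts to be tested, 7 fell and 0 rose (edgeR quasi-likelihood test, adjusted p under 0.05 and absolute log2 fold change above 0.5). At an unadjusted p under 0.05, 7 of the 8 were lower and 0 higher, where 51.6% of all genes tested passed in either direction. By edgeR, 19.7% of all 15434 genes tested were called lower and 20.1% higher. DESeq2, which tested all 9, called 0 higher and 8 lower, Car4 among them and Aqp1 not. Over all genes DESeq2 called 3506 higher and 3286 lower. The median log2 fold change of the 8 genes was -2.12, against -0.00 over all genes tested. Aqp1 was the gene that was tested and not called, and Car4 had too few counts for the test. In 6 of the 8 genes tested the senescent cultures lay below the non-senescent ones without overlap, a pattern that 20.8% of all genes tested showed, and so did the untested Car4.

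Slc9a3 (ENSMUSG00000036123.8, chr13:74121457-74169442, plus strand) encodes the apical sodium/proton exchanger NHE3. Its level in non-senescent PTEC was 0.452, 0.575, 0.466 and 3.82 CPM, from 18, 22, 15 and 132 counts. In senescent PTEC it was 0.0502, 0.155, 0.212 and 0.134 CPM, from 2 to 10 counts. The groups did not overlap, and non-senescent replicate 4 stood far above the other 3. The fitted change was -3.20 ± 0.84 on the log2 scale (SE, adjusted p = 0.0127), which is 9.16-fold lower. Without non-senescent replicate 4 it was -1.77 and still called.

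Slc4a4 (ENSMUSG00000060961.14, chr5:88886818-89239653, plus strand) encodes NBCe1, the basolateral sodium/bicarbonate cotransporter. Non-senescent PTEC held 98.1, 100.1, 121 and 512 CPM, and senescent PTEC 62.0, 50.8, 76.7 and 96.6 CPM. The groups were separated by a narrow gap, and replicate 4 was the highest library in each. The change was -1.52 ± 0.54 (SE, adjusted p = 0.0447). This call was lost when some single libraries were left out. Without non-senescent replicate 4 the change was -0.54 (adjusted p = 0.0762). Without any 1 senescent culture the adjusted p was 0.0613 to 0.104. Over all single omissions the change ran from -1.75 to -0.54, the latter without non-senescent replicate 4.

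The 3 carbonic anhydrases differ in where they sit in the cell and in how much RNA was found. Car2 (ENSMUSG00000027562.12, chr3:14886273-14900770, plus strand) is the cytosolic enzyme. It was at 136, 134, 215 and 220.1 CPM in non-senescent PTEC and at 74.4, 55.5, 86.2 and 87.1 CPM in senescent PTEC. All 4 senescent cultures lay below all 4 non-senescent ones, with a change of -1.19 ± 0.22 (SE, adjusted p = 0.00235).

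Car12 (ENSMUSG00000032373.15, chr9:66713686-66766845, plus strand) is a membrane enzyme with its active site outside the cell. It was at 36.9, 37.6, 38.4 and 65.8 CPM in non-senescent PTEC and at 6.48, 6.43, 8.56 and 6.37 CPM in senescent PTEC. The 2 groups were far apart with little spread within the senescent cultures, and the change was -2.65 ± 0.23 (SE, adjusted p = 2.94e-05), the smallest adjusted p among the 8 genes tested.

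Car4 (ENSMUSG00000000805.18, chr11:84957786-84966044, plus strand) is anchored to the outer face of the brush border membrane, where it serves bicarbonate uptake from the lumen. Non-senescent PTEC had 5, 4, 10 and 21 counts and senescent PTEC 0, 0, 1 and 0 counts. Every non-senescent library lay above every senescent one, but at so few reads that the low count filter of the main test removed the gene. The summed counts of 40 and 1 give a ratio of 45.0 after scaling, with an exact 95% interval of 7.63 to 1822 that covers counting error only. When no filter was applied, edgeR gave -4.93 (adjusted p = 0.000785), and DESeq2 gave -5.24 (adjusted p = 0.000415).

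Of the 3 aquaporins, Aqp11 alone had groups that did not overlap. Aqp1 (ENSMUSG00000004655.5, chr6:55336432-55348555, plus strand) is the water channel of both membranes of the proximal tubule cell. Its level was 5.66, 20.2, 25.4 and 39.3 CPM in non-senescent PTEC and 10.1, 18.9, 21.5 and 13.2 CPM in senescent PTEC. The lowest and the highest of the 8 libraries were both non-senescent, so the senescent values lay inside that range. The fitted change of -0.48 had a 95% interval from -1.56 to 0.59 (adjusted p = 0.446), so both no change and a marked fall lie inside it.

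Aqp7 (ENSMUSG00000028427.13, chr4:41033074-41048139, minus strand) passes glycerol as well as water and is known from the brush border of the straight proximal tubule. Its level was 0.302, 0.209, 2.55 and 3.82 CPM in non-senescent PTEC and 0.126, 0.155, 0.191 and 0.294 CPM in senescent PTEC. Non-senescent replicates 3 and 4 stood well above the rest, while replicates 1 and 2 lay within or just above the senescent range, so the groups overlapped. In every same-numbered pair the senescent culture was the lower one. The change was -3.12 ± 0.90 (SE, adjusted p = 0.0193). It was no longer called without non-senescent replicate 4 (-2.34, adjusted p = 0.0591) or without senescent replicate 1 (adjusted p = 0.0547). Over all single omissions the change ran from -3.49 to -2.34.

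Aqp11 (ENSMUSG00000042797.9, chr7:97724006-97738289, minus strand) is an intracellular aquaporin of the endoplasmic reticulum of proximal tubule cells. It was at 1.36, 1.49, 1.80 and 2.81 CPM in non-senescent PTEC and at 0.653, 0.413, 0.744 and 0.589 CPM in senescent PTEC. The groups did not overlap although the counts were low, from 16 to 97 per library. Aqp11 fell by 1.60 ± 0.32 on the log2 scale (SE, adjusted p = 0.00317).

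Fxyd2 (ENSMUSG00000059412.7, chr9:45399669-45410278, plus strand) encodes the small subunit that tunes the sodium pump, and it is also known from the thick ascending limb and the distal tubule. Non-senescent PTEC held 100.3, 66.3, 357 and 225 CPM, and senescent PTEC 6.18, 5.29, 22.0 and 11.7 CPM. The highest senescent culture lay below the lowest non-senescent one, and replicate 3 was the highest library in both groups. Replicate 3 also stood apart in both groups by the correlation, across 10606 genes, between log2 exon length and each gene's deviation from its PTEC mean, at -0.47 and -0.20 against 0.00 to 0.12 and 0.20 to 0.22 in the others. The part of this in the Fxyd2 levels was not tested, and the fall was -3.50 without non-senescent replicate 3 and -4.56 without senescent replicate 3. Fxyd2 had the largest fitted fall of the 8 genes tested, -4.02 ± 0.64 (SE, adjusted p = 0.000948), or 16.3-fold.

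Other genes of the same pathways were read from lists. Among 16 partners of sodium transport (pump subunits, scaffold proteins of NHE3, other exchangers and proton pump subunits), 6 fell and 1 rose, with a median log2 fold change of -0.37. Atp1b1, the beta subunit of the pump to which Fxyd2 binds, fell by 1.21 ± 0.30 (SE, adjusted p = 0.00914). The brush border scaffold Pdzk1 fell by 6.17 ± 0.75 (adjusted p = 0.000211), from 53.9 ± 43.5 to 0.729 ± 0.277 CPM (SD, n = 4). The NHE3 scaffolds moved in opposite directions, Slc9a3r1 (NHERF1) lower by -1.11 ± 0.15 and Slc9a3r2 (NHERF2) higher by 1.14 ± 0.16 (adjusted p = 0.000334 and 0.000438). Ezr, which links the scaffold to actin, and Atp6v0a4, a subunit of the proton pump, also fell.

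Of 13 other carbonic anhydrases, 5 were tested, with Car5b and Car13 called lower and Car7 and Car11 called higher. Of 8 other aquaporins, 2 were tested and Aqp4 was called lower, and of 6 other FXYD regulators, 4 were tested and Fxyd4 and Fxyd5 were called lower. Markers of neighbouring cell types moved as well. Of the proximal tubule markers, 7 of 9 tested fell, with Hnf4a going from 82.3 ± 16.7 to 10.2 ± 1.07 CPM. For the thick ascending limb and distal tubule, 4 of 5 fell and 1 rose, with summed levels of 36.0 to 66.3 CPM in non-senescent and 34.4 to 76.8 CPM in senescent PTEC. The marker that rose, Trpm6, went from 25.9 ± 9.81 to 50.9 ± 20.2 CPM (SD, n = 4). In senescent PTEC the next highest mean of that list was 1.01 CPM (Cldn16). For the collecting duct principal cell, 4 of 5 fell, with summed levels of 10.5 to 49.9 and 3.23 to 11.7 CPM. Non-senescent replicate 4, which was highest of its group for 8 of the 9 genes, also had the highest summed level of its group in 6 of the 10 cell type lists, those of the proximal tubule (691 CPM), thick ascending limb and distal tubule (66.3 CPM), principal cell (49.9 CPM), intercalated cell (6.68 CPM), fibroblast and pericyte (70.5 CPM) and leukocyte (44.2 CPM). In the other direction, 3 of 5 fibroblast and pericyte markers tested rose (Pdgfrb, Col1a2 and Dcn), and their list summed to 11.1 to 70.5 CPM in non-senescent and 76.8 to 276 CPM in senescent PTEC, without overlap. Of the 5 thin descending limb markers 1 rose (Fst) and 1 fell (Slc14a2). Among the other lists, the leukocyte markers Ptprc and Coro1a, the endothelial marker Kdr and the intercalated cell marker Slc4a9 fell, and the podocyte marker Nphs1 rose. The 6 proliferation markers all fell, from summed levels of 574 to 1082 CPM to 19.1 to 33.9 CPM. The part of these markers in the results for the 9 genes was not tested. Fewer cells of a type and less RNA per cell cannot be told apart in these bulk samples.

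**Figure D2:**
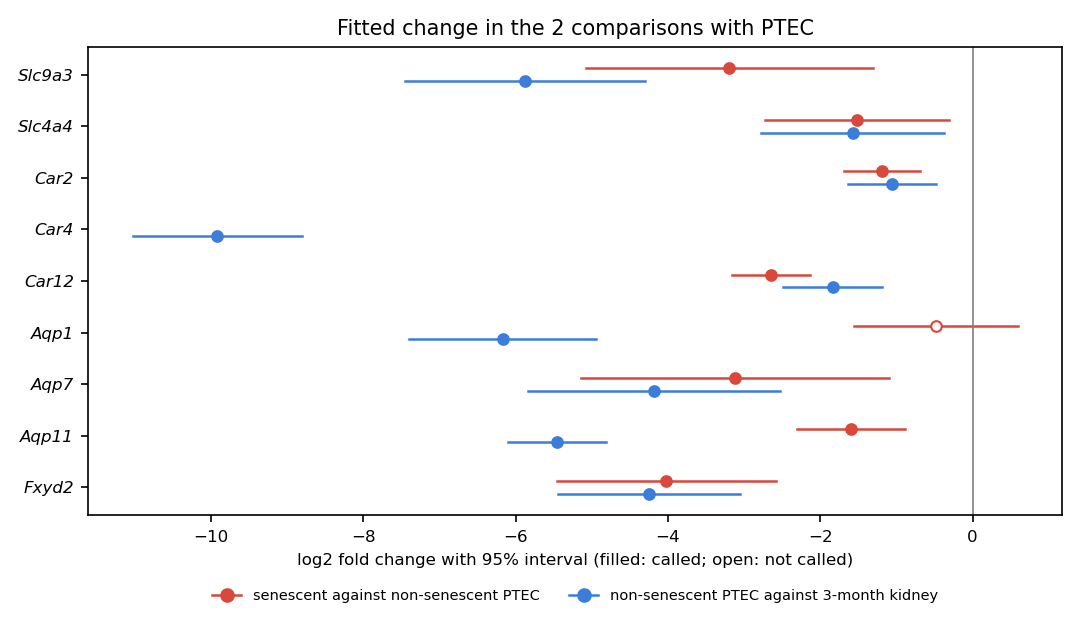
Fitted log2 fold change with its 95% interval for senescent against non-senescent PTEC (8 genes tested) and for non-senescent PTEC against 3-month kidney (9 genes); filled points were called. All points lie below 0, Fxyd2 has the largest fall between the PTEC groups (-4.02), and Car4 the largest between culture and kidney (-9.92).

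Non-senescent PTEC were set beside 3-month kidneys to show how much of the level of the whole organ these cultures hold. All 9 genes were called lower in PTEC, and in all 9 the groups did not overlap on the joint scale. With PTEC and kidneys scaled apart, Slc4a4 and Car2 did overlap. Slc4a4 was then at 661 CPM in non-senescent replicate 4 and 416 CPM in 3-month replicate 1. Car2 was at 284 CPM in non-senescent replicate 4 and 264 CPM in 3-month replicate 2. Over all 16190 genes tested, 32.6% were called lower, and 33.3% did not overlap and were lower. The median log2 fold change of the 9 genes was -4.25, against 0.05 over all genes tested. Culture, cell make-up and gene set differ together between these libraries and cannot be told apart.

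The differences were far from even, and several of their sizes rested on non-senescent replicate 4. Car4 had the largest, from 282 ± 28.2 CPM in kidneys (SD, n = 3) to 0.287 ± 0.233 CPM in PTEC (SD, n = 4), a 967-fold difference (log2 fold change -9.92 ± 0.51, SE, adjusted p = 7.17e-08). Aqp1 was 72.0-fold lower, Slc9a3 58.9-fold, Aqp11 44.0-fold, Fxyd2 19.0-fold and Aqp7 18.2-fold. Car12 (3.58-fold), Slc4a4 (2.98-fold) and Car2 (2.08-fold) were nearest to the kidney level. Without non-senescent replicate 4, the log2 fold change of Slc9a3 went from -5.88 to -7.25, past that of Aqp1 (-6.56), and that of Slc4a4 from -1.58 to -2.52, past that of Car12 (-2.07). That of Aqp7 went from -4.18 to -4.94 and that of Car4 from -9.92 to -10.57, so the order of the folds is not fixed. For Slc4a4 the change was -1.58 ± 0.55 (SE, adjusted p = 0.0246), and it was not called without 3-month replicate 2 (adjusted p = 0.0946), without non-senescent replicates 1, 2 or 3 (adjusted p = 0.0602, 0.0513 and 0.0859) or with no filter on low counts (adjusted p = 0.130). Its change ran from -2.52 to -1.32 over the alternatives run, and at -2.52, without non-senescent replicate 4, the call was kept.

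The 2 comparisons share the non-senescent cultures, so each gene's values are set side by side only. Fxyd2 had a log2 fold change of -4.25 from kidney to culture and -4.02 from non-senescent to senescent PTEC. Aqp1 had -6.17 and -0.48, and Car12 had -1.84 and -2.65. Of the 16 partners, 11 were called lower in PTEC than in kidney and 4 higher, among them Ezr. Over all 16190 genes tested, 5286 were called lower and 5339 higher.

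The ages were compared to see whether these genes change in the whole kidney of ageing mice. None of the 9 was called in any of the 3 age comparisons by edgeR. Over the 17067 genes tested, 2.34% were called between 24 and 3 months, 2.58% between 12 and 3 months and 1.33% between 24 and 12 months. At an unadjusted p under 0.05, 2 genes were lower at 24 than at 3 months (Aqp1 and Aqp7), 1 was higher (Slc9a3) and 2 lower (Car2 and Aqp7) at 12 than at 3 months, and 1 was higher at 24 than at 12 months (Car2). Over all genes tested, 18.2%, 16.5% and 15.2% passed that unadjusted threshold in the 3 comparisons. DESeq2 called 1 gene lower at 24 months (Aqp7, -0.64, adjusted p = 0.0211), 1 lower at 12 months (Car2, -0.55, adjusted p = 0.0491) and 0 between 24 and 12 months. Over all genes DESeq2 called 727 higher and 308 lower between 24 and 3 months, and 531 and 576 between 12 and 3 months. Between 24 and 12 months it called 493 higher and 286 lower. The median log2 fold change of the 9 genes was 0.03, -0.00 and -0.11, against 0.00, 0.00 and -0.00 over all genes tested.

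Slc9a3 was at 67.7, 108 and 63.8 CPM at 3 months, at 146, 109.7 and 159.9 CPM at 12 months and at 107, 119 and 97.1 CPM at 24 months. The 12-month kidneys all lay above the 3-month ones, if only just, and the 24-month kidneys lay between and overlapped both. The log2 change was 0.78 from 3 to 12 months (95% interval 0.26 to 1.29, adjusted p = 0.121), 0.41 from 3 to 24 months (-0.10 to 0.93, adjusted p = 0.352) and -0.36 from 12 to 24 months (-0.88 to 0.15, adjusted p = 0.477). One library decides the first of these: without 3-month replicate 2 Slc9a3 was called higher at 12 months (1.05, adjusted p = 0.0256).

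Slc4a4 was at 521, 846 and 537 CPM at 3 months, at 837, 623 and 844 CPM at 12 months and at 901, 775 and 771 CPM at 24 months. All 3 ages overlapped, with 3-month replicate 2 high and 12-month replicate 2 low within their groups. The 24-to-3-month change was 0.34 (95% interval -0.14 to 0.82, adjusted p = 0.394). The older kidneys were counted on a newer version of the Slc4a4 gene model than the 3-month kidneys and PTEC, so its age comparison is not within 1 model.

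Car2 was at 382, 314 and 435 CPM at 3 months, at 282, 258 and 250.4 CPM at 12 months and at 325, 407 and 329 CPM at 24 months. The 12-month kidneys lay below all 6 others, while the youngest and oldest overlapped. The change was -0.54 from 3 to 12 months (95% interval -0.91 to -0.16, adjusted p = 0.136) and 0.42 from 12 to 24 months (0.04 to 0.79, adjusted p = 0.277).

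Car4 overlapped between all ages, with group means of 282 ± 28.2, 291 ± 13.2 and 321 ± 29.8 CPM at 3, 12 and 24 months (SD, n = 3). Its 24-to-3-month interval ran from -0.16 to 0.48. Car12 had nearly equal means of 164 ± 57.2, 166 ± 56.4 and 171 ± 15.2 CPM, but single kidneys ran from 102 to 224 CPM. Its 24-to-3-month interval was correspondingly wide, from -0.65 to 0.73.

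Aqp1 was at 1666, 1784 and 1563 CPM at 3 months, at 1488, 1469 and 1413 CPM at 12 months and at 1259.8, 1495 and 1295 CPM at 24 months. All 6 older kidneys lay below all 3-month kidneys, and the 2 older ages overlapped. The change from 3 to 24 months was -0.33 (95% interval -0.62 to -0.04, adjusted p = 0.222), and from 3 to 12 months it was -0.22 (-0.50 to 0.07, adjusted p = 0.474).

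Aqp7 was at 30.3, 33.9 and 30.7 CPM at 3 months, at 20.8, 26.9 and 21.04 CPM at 12 months and at 17.2, 23.4 and 21.6 CPM at 24 months. Again all 6 older kidneys lay below the youngest group and overlapped each other. The change from 3 to 24 months was -0.63 (95% interval -1.01 to -0.26, adjusted p = 0.0926) and from 3 to 12 months -0.48 (-0.85 to -0.11, adjusted p = 0.173).

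Aqp11 was at 82.7, 91.3 and 78.8 CPM at 3 months, at 112, 91.8 and 108 CPM at 12 months and at 79.6, 87.4 and 94.7 CPM at 24 months. The 12-month kidneys lay above the 3-month ones by a small margin, and the 24-month kidneys overlapped both. The change from 3 to 12 months was 0.28 (95% interval -0.02 to 0.59, adjusted p = 0.350). In each of the 3 same-numbered pairs of 12- and 24-month kidneys the older one was lower, with a change of -0.26 (adjusted p = 0.403, and 0.612 with the replicate block).

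Fxyd2 was at 3575, 2555 and 4752 CPM at 3 months, at 2857, 4191 and 2811 CPM at 12 months and at 2349, 3201 and 2607 CPM at 24 months. The ages overlapped throughout, with the widest spread among the 3-month kidneys. The change from 3 to 24 months was -0.44 (95% interval -1.03 to 0.15, adjusted p = 0.373). Fxyd2 too was lower at 24 than at 12 months in all 3 same-numbered pairs, with a change of -0.28 (adjusted p = 0.624, and 0.738 with the replicate block).

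In all, 2 genes did not overlap and were lower between 24 and 3 months (Aqp1 and Aqp7), as did 9.15% of all genes tested. Between 12 and 3 months, 3 were lower without overlap (Aqp1, Aqp7 and Car2), as were 8.88% of all genes, and 2 higher (Slc9a3 and Aqp11), as were 11.4%. Between 24 and 12 months Car2 was higher without overlap, as were 13.5% of all genes. The comparisons with 3 months share their 3 young kidneys.

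**Figure D3:**
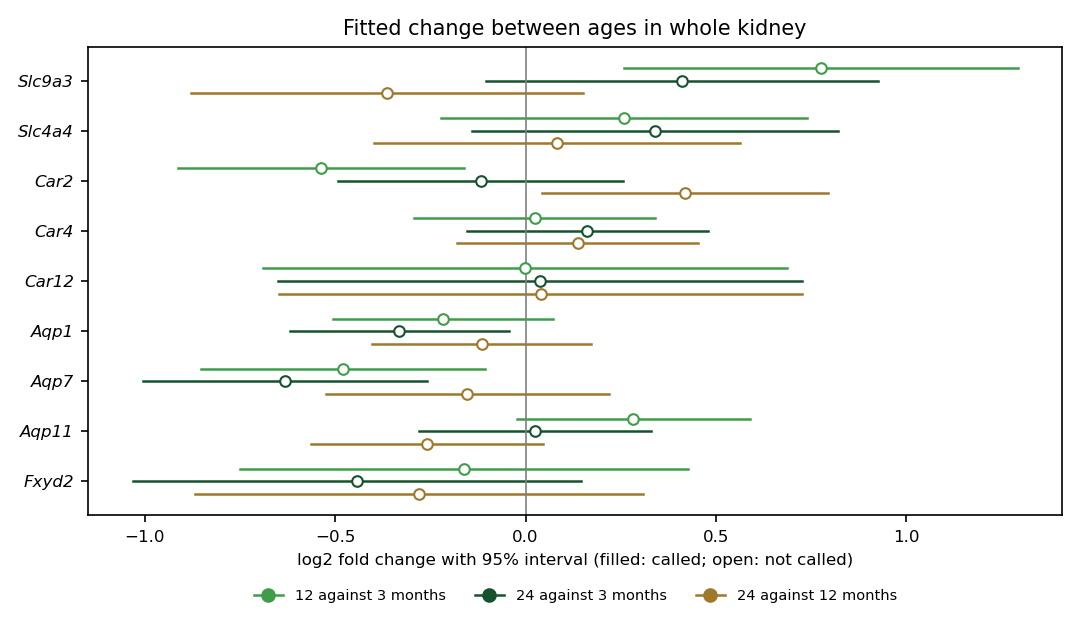
Fitted log2 fold change with its 95% interval for each of the 9 genes in the 3 age comparisons of whole kidney; open points were not called. No gene was called, and the intervals that leave out 0 belong to Slc9a3, Car2 and Aqp7 at 12 against 3 months, Aqp1 and Aqp7 at 24 against 3 months, and Car2 at 24 against 12 months.

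Of the 16 partners, edgeR called 0 in each age comparison. At an unadjusted p under 0.05 and by DESeq2 the only partner to pass was Sgk1, lower at 12 than at 3 months. Of the other carbonic anhydrases (10 tested) and FXYD regulators (5 tested) edgeR also called 0 in each age comparison. Between 24 and 3 months, 1 carbonic anhydrase was higher and 4 lower at an unadjusted p under 0.05, as were 1 and 2 FXYD regulators, and DESeq2 called Car8 and Fxyd4 lower. Between 12 and 3 months these counts were 1 and 2 for the carbonic anhydrases and 0 and 2 for the FXYD regulators, with Car9 higher and Fxyd3 and Fxyd4 lower by DESeq2. Between 24 and 12 months they were 1 and 1, and 1 and 0, with Car13 higher by DESeq2 and 0 FXYD regulators called. Among the other aquaporins, Aqp2, the vasopressin-regulated channel of the collecting duct, fell by 2.18 ± 0.35 from 3 to 12 months (SE, adjusted p = 0.0224), and Aqp5 fell by 3.89 ± 0.77 at under 2 CPM in every kidney (adjusted p = 0.0389). Between 24 and 3 months edgeR and DESeq2 called 0 of 6 other aquaporins tested, and 4 were lower at an unadjusted p under 0.05 (Aqp2, Aqp3, Aqp4 and Aqp5). Between 12 and 3 months 4 were lower at that threshold, and between 24 and 12 months 2 were higher, of which DESeq2 called Aqp2.

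Markers of segments that also use some of these genes were read as summed levels, given for 3, 12 and 24 months in turn. The summed level of 5 thin descending limb markers, a segment where Aqp1 is also found, was 159 to 493 CPM at 3 months, 121 to 154 at 12 months and 121 to 257 at 24 months. The 5 principal cell markers summed to 361 to 440.4, 171 to 330.2 and 199.7 to 305 CPM, and the 7 intercalated cell markers, of a cell rich in carbonic anhydrase, to 293 to 398, 176 to 359 and 221 to 282 CPM. Of these, edgeR called Avpr2 of the principal cell lower at 12 and at 24 than at 3 months, and 0 thin limb or intercalated cell markers in those comparisons. At an unadjusted p under 0.05, 1 thin limb marker was higher and 2 lower at 24 months and 1 higher and 3 lower at 12 months, with 1 intercalated marker lower at each age. DESeq2 called Cldn1 higher and Atp6v1g3 lower at 24 months, and Bst1 and Slc14a2 lower at 12 months. Of the principal cell markers, Scnn1g, Avpr2 and Fxyd4 were lower at 24 than at 3 months at an unadjusted p under 0.05. By DESeq2, Fxyd4 was also lower at 24 and at 12 than at 3 months. The 7 thick ascending limb and distal tubule markers, of segments where Fxyd2 is also found, summed to 4245 to 6545, 3708 to 4728 and 5173 to 6684 CPM, without overlap between 12 and 24 months. The 16 proximal tubule markers summed to 68715 to 72043, 73994 to 82311 and 62964 to 70603 CPM. Kap alone held 43511 ± 4643, 45358 ± 2792 and 31231 ± 3661 CPM of that (SD, n = 3), while Slc5a2, Slc5a12 and Miox were called higher at 24 than at 3 months (log2 fold change 1.88, 1.56 and 0.74). The 6 fibroblast and pericyte markers summed to 118 to 150.2, 163 to 168 and 197 to 251 CPM and the 7 leukocyte markers to 93.3 to 143.6, 144.1 to 179 and 151 to 209 CPM, in both lists with the 3-month kidneys below all older ones. The gap in the leukocyte list was narrow. The 7 endothelial markers summed to 306 to 425, 432 to 552 and 291 to 547 CPM, without overlap between 3 and 12 months. In the thick ascending limb and distal tubule, fibroblast, leukocyte and endothelial lists, edgeR called 0 markers in each age comparison. In these lists DESeq2 called Slc12a3, Col1a1, Col1a2, Laptm5 and Adgre1 higher at 24 than at 3 months. It called Trpm6 lower at 12 than at 3 months and Emcn lower at 24 than at 12 months. Of the proliferation markers, Mki67, Top2a and Ccnb1 were called higher at 24 than at 3 months, as was Cdkn1a (1.201), which was lower at 12 than at 3 months (-1.53). The part of these markers in the levels of Aqp1, Aqp7, Car2 and Fxyd2 was not tested.

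The kidneys also differed from each other within an age, and some of the 9 genes moved with that difference. In each kidney, the deviation of every gene from its mean over the 9 kidneys was correlated with log2 exon length across 10827 genes, which are not independent replicates. The coefficient was -0.19, 0.34 and -0.37 at 3 months, 0.14, -0.27 and 0.19 at 12 months and 0.33, -0.04 and 0.20 at 24 months. Fxyd2 stood 0.60 above its mean (log2) in 3-month replicate 3 and 0.42 above in 12-month replicate 2, the kidneys with the lowest coefficients, where Slc4a4 was at -0.43 and -0.22 and Car12 at -0.57 and -0.67. In 3-month replicate 2 and 24-month replicate 1, which had the highest coefficients, Fxyd2 was at -0.29 and -0.41 and Slc4a4 at 0.22 and 0.31. The exon length was 4005 bases for Fxyd2, 7597 for Car12 and 10815 for Slc4a4. Car4, Car2, Aqp1 and Aqp7 were shorter than Fxyd2, at 1966 to 2828 bases. Aqp11, with 9418 bases, was at 0.001 and -0.20 in 3-month replicate 2 and 24-month replicate 1. The part of this length difference in the members' spread was not tested.

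**Figure D4:**
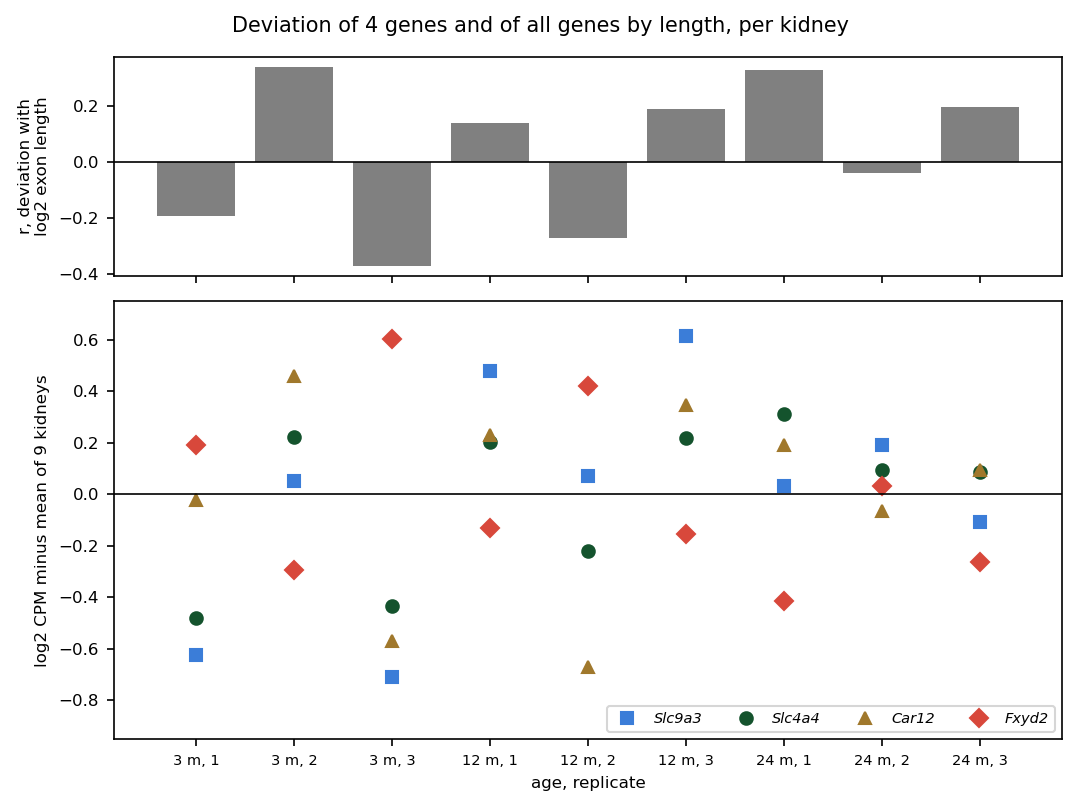
Upper panel, correlation across 10827 genes between log2 exon length and the deviation of each gene in that kidney; lower panel, deviation of Slc9a3, Slc4a4, Car12 and Fxyd2 (log2 CPM minus the mean of 9 kidneys). Fxyd2 lies above 0 in the kidneys with a negative coefficient and below 0 in those with a positive one.

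Within the 9 kidneys, as a description over libraries that share depth and length differences, Pearson's r of log2 CPM was -0.87 between Slc4a4 and Fxyd2, -0.86 between Car12 and Fxyd2, 0.88 between Aqp1 and Aqp7 and 0.82 between Slc9a3 and Slc4a4. The genes most like each member over the 9 kidneys, among 10394 genes averaging 5 CPM or more, were Mrpl46 for Fxyd2 (r = 0.999), Yipf6 for Car12 (0.994), Slc19a3, a thiamine transporter, for Slc4a4 (0.977) and Idh3a, a subunit of isocitrate dehydrogenase, for Car2 (0.97). Slc9a3 was nearest to Mut (0.97), Aqp1 to Fam126b (0.97), Aqp7 to Qrsl1 (0.97), Aqp11 to Ufsp2 (0.97) and Car4 to Nat8f2 (0.87). Over the 8 PTEC cultures, which hold the difference between the 2 PTEC groups, r was 0.97 between Car2 and Fxyd2, and between 0.29 and 0.60 for Aqp1 with each of the other 7 members tested. The nearest genes there were Sephs2 for Fxyd2 (0.998), Nbeal2 for Car12 (0.996), Mettl7b for Car2 (0.994), Slc35d2 for Aqp11 (0.988), Gm49759 for Slc9a3 (0.982), Lzts3 for Aqp7 (0.98), Manba for Slc4a4 (0.98) and Unc93b1 for Aqp1 (0.88).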

How the data were processed

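RNA from 8 PTEC cultures and 9 kidneys was sequenced after mRNA enrichment, and the authors deposited unnormalized counts for each gene. The study's supplement describes a pool of 9 stranded poly(A) libraries. It names nf-core/rnaseq 1.4.2 with GRCm38 and GENCODE release M 18. The deposited counts list 53715 identifiers for PTEC, 54146 for 3-month kidneys and 55401 for older kidneys. That release therefore cannot be stated for all 17 libraries. The counting tool's strand setting is not given in the sources used here, and no annotated gene overlaps any of the 9 genes. Symbols, positions and exon lengths were taken from GENCODE release M 21. The members and lists were chosen with earlier results of these data known.

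PTEC and kidneys were fitted apart with edgeR 4.0.16 and limma 3.58.1 (R 4.3.3), using filterByExpr, TMM scaling and the robust quasi-likelihood test, and p-values were adjusted by Benjamini-Hochberg over all genes tested. Calls needed an adjusted p below 0.05 together with a log2 change of more than 0.5 in size, as in the study's methods. SEs and 95% intervals were derived from the F statistic. Non-senescent PTEC and 3-month kidneys were fitted together on shared identifiers. All 9 members were named, with fixed lists of pathway partners and cell type markers and the genes nearest to each member by Pearson's r. DESeq2 1.42.0, other scalings and filters, and single libraries left out were alternatives. The code was tested on simulated data. Values of some list genes are not reported here. Tables and plots were made in Python 3.11.15 with numpy 2.4.6, pandas 2.3.3, scipy 1.17.1 and matplotlib 3.10.9.

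The labels do not say whether the 4 cultures of a PTEC group came from separate mice, so p-values there measure the spread between cultures. No replicate pair agreed within sampling noise. Deviations of same-numbered samples from their group means correlated at 0.284, 0.382, 0.614 and 0.186 in PTEC. Between 24 and 12 months they correlated at 0.382, 0.555 and 0.171. Some differently numbered samples did too, senescent replicate 1 with non-senescent replicate 2 at 0.265 and 24-month replicate 1 with 12-month replicate 3 at 0.267. The labels do not say what a number shares, so pairing is not established. The main fits did not use it, and the replicate block was an alternative. The share of all genes lower in every same-numbered pair is not given here.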

Additional observations from a re-analysis of the deposited data

Results flagged for a closer look

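Within each group of 4 PTEC cultures, the highest and the lowest level of each gene were set against the other 3 with Dixon's criterion. Of 18 gene and group pairs examined, 5 held a library far from the others. Chance gives about 1 in 20 independent groups, a figure these 5 cannot be set against, since 3 of them come from the same library and Car4 meets the criterion through 1 count among zeros. In non-senescent PTEC, replicate 4 was that library for Slc9a3 (3.819 CPM), Slc4a4 (511.7 CPM) and Car12 (65.8 CPM), each above the other 3 cultures. In senescent PTEC, replicate 3 was that library for Car12 (8.561 CPM) and for Car4 (0.02124 CPM, from 1 count where the other 3 cultures had 0). The same non-senescent replicate 4 had the highest summed level of proximal tubule markers, 691 CPM against 179 to 249 CPM in the other 3, and of 5 other cell type lists, and the part of these in the levels of Slc9a3 and Slc4a4 was not tested.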

How the results depend on the processing

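Between senescent and non-senescent PTEC, leaving out each culture in turn gave 5 to 7 lower calls, and DESeq2 gave 8. Over all genes, the lower calls ran from 2369 to 3220 under these omissions, against 3044 in the main fit. Between non-senescent PTEC and 3-month kidneys, the lower calls numbered 8 to 9 under the alternatives run. Over all genes they ran from 4734 to 6693, against 5286 in the main fit. DESeq2 called 1 member lower at 24 against 3 months (Aqp7) and 1 at 12 against 3 months (Car2), where edgeR called 0. Without 3-month replicate 2, 1 member was called higher at 12 months (Slc9a3), and the other omissions gave 0. The causes were not tested. Of the fitted changes of single genes under the alternatives, 600 kept their direction and side of the threshold, 14 lost the call, 5 gained it (Car4 in PTEC under 2 settings among them) and 16 changed sign, all 16 for genes that were not called between the ages. For Car12 at 12 against 3 months, the change was 0.0269 with upper quartile scaling, 0.0151 with no filter on low counts and 0.0056 with a filter at a mean of 1 CPM. With single kidneys left out, Car12 ran from -0.22 to 0.28 at 12 against 3 months, from -0.18 to 0.32 at 24 against 3 months and from -0.21 to 0.24 at 24 against 12 months. Likewise Car2 ran from -0.23 to 0.00023 and Aqp11 from -0.0380 to 0.0890 at 24 against 3 months, Car4 from -0.0593 to 0.0738 and Fxyd2 from -0.38 to 0.0818 at 12 against 3 months, and Slc4a4 from -0.0438 to 0.16 at 24 against 12 months. Slc4a4 between the PTEC groups also lost its call with upper quartile scaling (adjusted p = 0.0521) and with no filter (0.147). Its change ran from -1.75 to -0.54 over the alternatives, the latter without non-senescent replicate 4.

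With the replicate number as a block, the member counts stayed at 7 lower in PTEC, 0 at each age and 9 lower against 3-month kidneys. In that last comparison, where non-senescent replicate 4 has no kidney of its number, the block moved 5 log2 fold changes by more than 1.5 times as folds, Slc9a3 to -7.25, Slc4a4 to -2.50, Car4 to -10.61, Aqp1 to -6.79 and Aqp7 to -5.54. Over all genes, the block moved the calls from 227 to 0 between 24 and 12 months, from 399 to 126 between 24 and 3 months and from 441 to 118 between 12 and 3 months. Same-numbered kidneys correlated at -0.0338, -0.42 and -0.221 in the second of these and at -0.0484, -0.703 and -0.619 in the third, so they share only a number, as do non-senescent PTEC and 3-month kidneys (-0.0665, 0.123 and 0.202). DESeq2 called 1035, 1107 and 779 genes between 24 and 3, 12 and 3, and 24 and 12 months, and fits of the compared ages alone called 265, 64 and 187. Leaving out any 1 kidney of the compared ages moved the main counts of 399, 441 and 227 by more than 1.5 times. They went to 74 to 794 between 24 and 3 months, 52 to 716 between 12 and 3 months and 1 to 63 between 24 and 12 months. The highest counts of the first 2 came without 3-month replicate 2, and that of the third without 24-month replicate 3. Scaling PTEC and kidneys apart raised the PTEC levels 1.23-fold to 1.29-fold and changed kidney levels to 0.792 to 0.843 of the joint scale, and 24 of 45 levels moved by more than 1 SD. Slc9a3, Aqp7, Aqp11 and Car4 rest on low counts in PTEC.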
